A study of Mus musculus with 32 samples.

Results

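The transcripts described here are those of 10 immediate early genes, Fos, Fosb, Jun, Junb, Egr1, Ier2, Ier3, Atf3, Btg2 and Dusp1, in the forebrain (Fb) and midbrain (Mb) of the E9.5 mouse embryo. They were chosen by name as genes known to be induced by tissue handling, matched by Ensembl identifier and GRCm38 symbol, and are 10 of the 48576 gene identifiers in the deposited files. RNA-seq was made from 32 libraries of B6C3F1 embryos, 16 for each tissue. In each tissue there were 6 wild-type (WT) libraries, 4 TKO_Ex libraries (Cdh6.8.11 triple knockout with exencephaly, the open cranial neural tube), 3 DKO_Ex libraries (double knockout with exencephaly) and 3 DKO_CD libraries (double knockout with a cranial defect). The labels give Cdh8 and Cdh11 as the knocked out genes of DKO_Ex and Cdh6 and Cdh8 as those of DKO_CD, whereas the paper's text calls both groups Cdh8/11 DKO. All mutant alleles are constitutive small deletions made by genome editing, so every cell of the embryo carries them, and each tissue piece was a whole dissected Fb or Mb frozen in liquid nitrogen straight after dissection. The values are FPKM, the fragments mapped per kilobase of exon scaled to the depth of the library, so that levels of different genes can be set side by side. The depth, estimated from the step between low values, was 2.10 to 3.47 M fragments per library (median 2.80), so that FPKM near 1 rest on only a few fragments in a gene with little exon sequence and on more in a longer one. At their WT medians Ier3 in the Mb (1.19 FPKM) had about 2.93 fragments and Egr1 in the Fb (0.992 FPKM) about 12.1. In the Mb, depth moved with the groups. The DKO_Ex libraries had 3.26 to 3.47 M fragments, all above the 2.55 to 3.14 M of WT, and the TKO_Ex libraries 2.10 to 2.49 M, all below them. The part of depth in the values below was not tested.

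Immediate early genes are transcribed within minutes of a stimulus from factors that are already in the cell, without new protein synthesis, and most of their mRNAs decay quickly. Growth factor signals reach them through the ERK, JNK and p38 kinases, which act on factors such as SRF with its ELK partners and CREB. Dissection, cooling, warming and enzymatic digestion are well known triggers in neural tissue, so that Fos and Egr1 are commonly read as signs of handling. Several of them also have roles in normal development, and Btg2 (also called Tis21) is known in the embryonic neural tube as a gene of progenitors that are about to give rise to neurons.

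RefSeq start-site windows of GRCm38.p6, each running from 250 bases before the start to 50 after it, were matched by symbol for 8 of the 10 genes. The 3 stretches shown hold a motif known from immediate early promoters within the bases before the start, for Btg2 and Dusp1 the cAMP response element TGACGTCA and for Fos the TATA box TATAAA, with the motif in capitals.
Btg2: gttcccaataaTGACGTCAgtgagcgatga
Dusp1: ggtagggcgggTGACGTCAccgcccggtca
Fos: cacagcgcttcTATAAAggcgccagctg
The Btg2 stretch lies at chr1:134079303-134079332 on the minus strand and its motif begins 166 bases before the start site. The Dusp1 stretch lies at chr17:26508597-26508626 on the minus strand, with the motif 143 bases before the start, and the Fos stretch at chr12:85473846-85473873 on the plus strand, with the motif 33 bases before it. Both strands were searched. TGACGTCA stood in 2 of the 8 windows and in 1.79% of all 32851 windows, and TATAAA or its reverse complement TTTATA in 2 of the 8 (Fos and Junb) and in 13.6% of all. Distances are counted from the RefSeq start, which for Btg2, Dusp1 and Junb is not the end of the GENCODE gene whose coordinates are given with the values. The AP-1 motif TGACTCA or TGAGTCA, which overlaps none of the others, was in 0 of the 8 windows against 5.2% of all, and the CArG box, to which SRF binds, in 0 of the 8 against 1.63% of all. A letter match of this kind describes the window only.

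Before the values were compared, each tissue was checked against defining markers. The Fb markers Six3, Lhx2, Rax and Emx2 were lower and the Mb markers En1, En2, Wnt1 and Pax8 higher in the WT Mb than in the WT Fb (limma, adjusted p under the threshold for all 8). The WT Mb library of replicate 5 stood apart, with a sum of 26.3 FPKM over the 4 Mb markers, against 87.6 to 177 FPKM in the other WT Mb libraries, and En2 had the highest mean of the 4 over the WT Mb libraries, 47.4 FPKM. TKO_Ex replicate 3 carried Cdh6 at 3.74 FPKM in the Fb and 3.10 FPKM in the Mb, inside the WT range of each tissue, where the other TKO_Ex libraries of the Mb had 0.345 to 0.388 FPKM. In the TKO_Ex Fb, Cdh6 ran from 0.572 FPKM with a median of 1.30 FPKM. Cdh8 was 0.911 to 3.15 FPKM in the TKO_Ex Fb (WT 0.840 to 1.96) and 0.851 to 2.32 FPKM in the Mb (WT 1.14 to 10.1). Cdh11 was 19.8 to 21.4 FPKM in the TKO_Ex Fb (WT 19.5 to 25.3) and 14.5 to 16.6 FPKM in the Mb (WT 17.9 to 28.7). In DKO_CD, which carries a Cdh6 deletion by the labels, Cdh6 was 1.29 to 2.11 FPKM in the Mb, inside the WT range of 1.04 to 3.55 FPKM, and 1.72 to 3.43 FPKM in the Fb, where the WT range was 2.04 to 3.997 FPKM. In DKO_Ex, Cdh6 was 1.86 to 3.12 FPKM in the Mb and 3.62 to 4.34 FPKM in the Fb. Cdh11 was 17.1 to 18.7 FPKM in the DKO_Ex Fb and 12.7 to 25.3 FPKM in the DKO_CD Fb. In the Mb it was 17.6 to 18.7 FPKM in DKO_Ex and 16.6 to 27.2 FPKM in DKO_CD. Cdh8, knocked out in both groups by the labels, was 0.423 to 0.702 FPKM in the DKO_Ex Fb and 0.449 to 1.44 FPKM in the DKO_CD Fb. In the Mb Cdh8 was 1.63 to 2.49 FPKM in DKO_Ex and 1.005 to 1.47 FPKM in DKO_CD. The paper describes small frameshift deletions and shows reads missing over the deleted stretches in the triple knockout. The FPKM of a whole gene need not fall with such a deletion. For the DKO_Ex and DKO_CD groups, 12 files carry a column name of one group under a record of the other. The column names were followed, and the values by record are given wherever they change a call. Nothing in the labels says which libraries were prepared together, nor that replicates came from separate litters, so the p-values measure the spread between these libraries.

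Fos and its paralog Fosb were at the bottom of the range. Fos, which encodes the AP-1 subunit c-Fos (12:85473890-85477273, plus strand), was listed at 0 in 19 of the 32 libraries. Its highest value was 1.93 FPKM, or about 11 fragments, in the WT Mb library of replicate 2. The next were 1.19 FPKM in TKO_Ex Mb replicate 2 and 1.06 FPKM in DKO_CD Mb replicate 2, both near 6 fragments, and every other library lay at or below 0.436 FPKM. Thus the 3 libraries above 1 FPKM were all of the Mb and each of a different genotype. All are numbered replicate 2, though nothing in the labels says what the numbers share. Fosb, the paralog of Fos (7:19302696-19310051, minus strand), was listed at 0 in 23 libraries and reached 0.428 FPKM at most, in WT Fb replicate 4. It was listed at 0 in all 6 DKO_Ex libraries. In the WT Mb it was 0.107 FPKM in replicate 4, 0.233 FPKM in replicate 6 and at 0 in the other 4, so the library with the most Fos had no Fosb. A listed 0 in a table of FPKM may also be a failed estimate, and neither gene entered any test, as both lay below a mean of 1 FPKM in each comparison.

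The partners of Fos in AP-1 were higher. Jun, which encodes c-Jun (4:95049034-95052222, minus strand), was at 8.04, 10.4 and 13.2 FPKM (lowest, median and highest) in the WT Fb and at 10.8, 11.7 and 17.2 FPKM in that order among WT Mb libraries. The highest WT value was again Mb replicate 2, and the other 5 WT Mb libraries lay within 10.8 to 11.8 FPKM. Junb, which encodes JunB (8:84974484-84978718, minus strand), was at 2.26, 2.70 and 3.63 FPKM in the WT Fb and in the WT Mb at 0.848, 2.89 and 4.21 FPKM. It was listed at 0 in TKO_Ex Mb replicate 3, where the other 3 TKO_Ex Mb libraries had 2.70, 4.88 and 7.995 FPKM. Junb differed more than Jun between libraries of 1 group. The within-group coefficient of variation was 52.6% for Junb, where counting error alone gives 21.8% at its mean of 21.02 fragments, and 21.7% for Jun, where counting error gives 9.95%. Atf3, a bZIP repressor of the stress response (1:191170296-191218039, minus strand), was at 0.787, 1.72 and 2.20 FPKM in the WT Fb and in the WT Mb at 1.02, 2.69 and 4.90 FPKM, with the highest single value, 6.35 FPKM, in DKO_Ex Fb replicate 1. The other 2 DKO_Ex Fb libraries had 2.25 and 0.965 FPKM.

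Of the remaining transcription regulators, Ier2 (8:84661331-84662852, minus strand) was by far the most abundant of the 10 genes. It was at 48.0, 56.7 and 60.3 FPKM in the WT Fb and in the WT Mb at 28.5, 40.8 and 48.4 FPKM. Its within-group coefficient of variation was the lowest of the 10, 12.2%, where counting error gives 7.90%. Egr1, which encodes a zinc finger factor of the ERK response on chromosome 18, was at 0.743, 0.992 and 1.13 FPKM in the WT Fb and in the WT Mb at 0.631, 1.55 and 2.28 FPKM, with Mb replicate 2 once more the highest. At a mean of 14.1 fragments its coefficient of variation of 34.2% was not far above the 26.6% of counting error.

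The other 3 genes act as brakes or in survival. Dusp1, a phosphatase that inactivates the MAP kinases (17:26505590-26562128, minus strand), was at 5.24, 5.96 and 6.95 FPKM in the WT Fb and in the WT Mb at 4.12, 7.33 and 8.61 FPKM. Btg2, an antiproliferative cofactor (1:134075170-134079120, minus strand), was at 6.03, 6.10 and 8.85 FPKM in the WT Fb and in the WT Mb at 8.23, 17.7 and 20.1 FPKM, so that the groups overlapped by 1 library only. Ier3, a regulator of apoptosis (17:35821684-35822923, plus strand), was at 1.48, 2.32 and 4.07 FPKM in the WT Fb and in the WT Mb at 0.412, 1.19 and 2.23 FPKM. Ier3 is short, and its 3.36 fragments on average give a counting error of 54.5%, close to the 59.8% that was measured.

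The order of the mean levels in the WT Fb was Ier2, Jun, Btg2, Dusp1, Junb, Ier3, Atf3, Egr1, Fosb and Fos. The range of Ier2 lay above that of Jun, that of Dusp1 above that of Junb, and that of Egr1 above that of Fosb, while all other neighbours overlapped. In the WT Mb the order was Ier2, Btg2, Jun, Dusp1, Atf3, Junb, Egr1, Ier3, Fos and Fosb. There Ier2 lay above Btg2 and Jun above Dusp1, and the other neighbours overlapped, Fos at its highest library reaching into the range of Ier3. WT Mb replicate 2 was the highest of its group for 5 of the 10 genes (Fos, Jun, Egr1, Atf3 and Dusp1). Among the 3 libraries of the DKO_CD Mb, replicate 1 was the highest for 5 genes (Jun, Egr1, Ier3, Atf3 and Btg2), and no other library of any group for more than 4. Replicate 2 was the highest of the WT Mb for neither Fosb, Junb, Ier2, Ier3 nor Btg2.

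**Figure D1:**
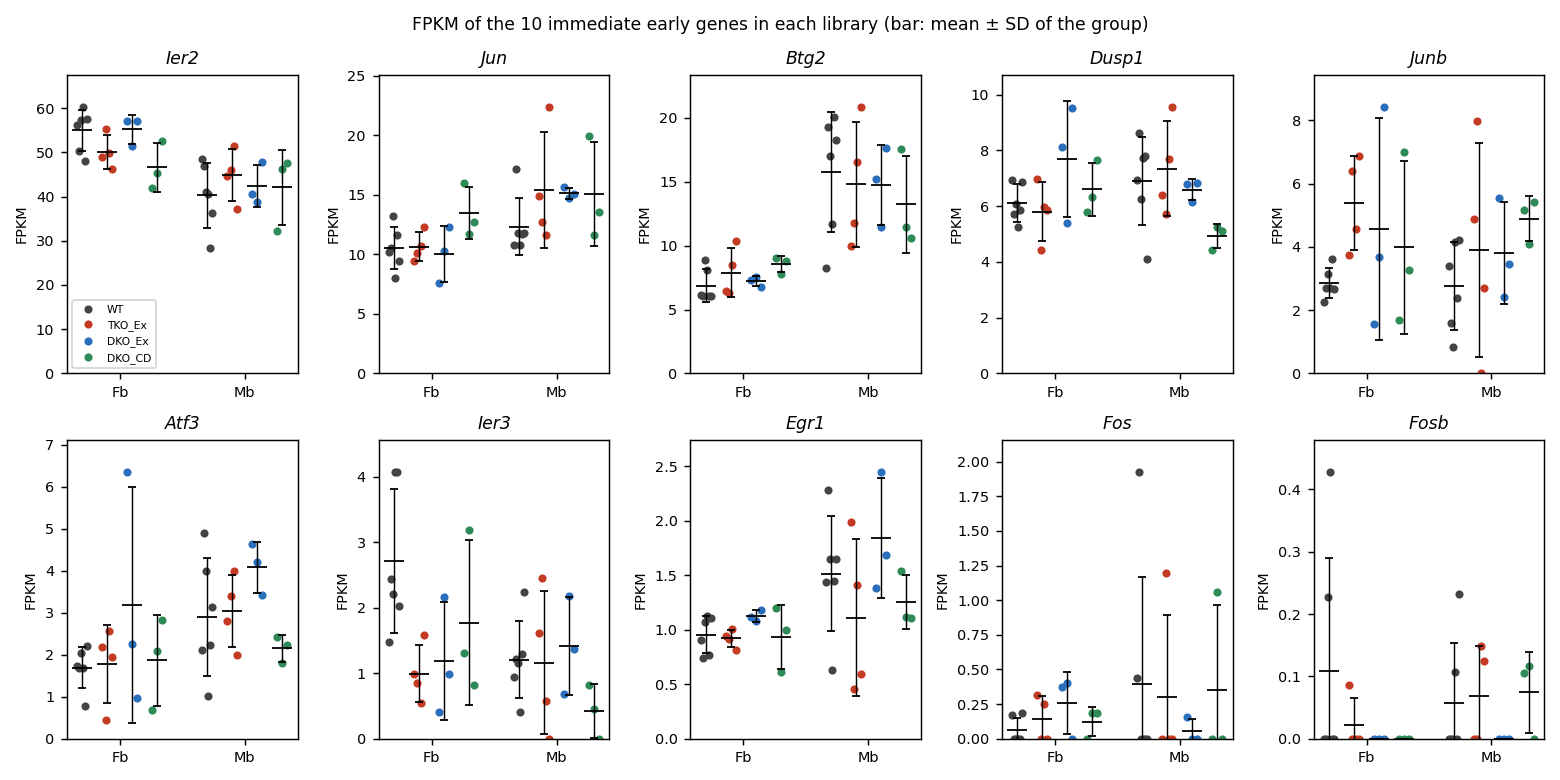
FPKM (y axis, linear, from 0) of each of the 10 genes in every library of the Fb and Mb, coloured by genotype group. Points are libraries, and bars the mean ± SD of 6 WT, 4 TKO_Ex, 3 DKO_Ex or 3 DKO_CD libraries, with lower SD ends cut at 0. Ier2 reaches 60.3 FPKM and Fosb only 0.428 FPKM. The mean of Btg2 is higher in the Mb in every group, and the single high Fos points come from 3 different Mb groups.

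To ask whether the loss of type II cadherins went with a different level of these genes, the mutants were set against WT of the matching tissue (limma on log2(FPKM + 1), genes averaging 1 FPKM or more, Benjamini-Hochberg adjusted p under 0.05). None of the 10 genes passed in any of the 6 comparisons. Of 60 pairs of gene and comparison, 45 could be tested. 7 genes entered in the Fb of TKO_Ex and of DKO_CD, where Egr1 was too low beside Fos and Fosb, and in the DKO_CD Mb, where Ier3 was too low, and 8 entered in the other 3 comparisons. Across all genes limma called 12 of 13361 in the TKO_Ex Mb (0.0898%), 12 of 13295 in the DKO_Ex Mb (0.0903%), 5 of 13344 in the DKO_CD Mb (0.0375%), 8 of 13261 in the TKO_Ex Fb (0.0603%), 10 of 13178 in the DKO_Ex Fb (0.0759%) and 5 of 13240 in the DKO_CD Fb (0.0378%), so that 0 of 7 or 8 is what those shares give. At an unadjusted p under 0.05 there were 5 of the 45, while the share of all genes that reached it was 8.38%, 5.46% and 6.69% in the TKO_Ex, DKO_Ex and DKO_CD Mb and 8.66%, 7.01% and 8.44% in the Fb of the same groups. The same 0 was obtained with the DKO libraries taken by record and without either library of TKO_Ex replicate 3.

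The Junb values of the TKO_Ex Fb had the lowest p of these tests. They were 3.75, 6.40, 4.55 and 6.88 FPKM, and all 4 lay above the highest of the 6 WT Fb libraries, 3.63 FPKM. The difference on the log2(FPKM + 1) scale was 0.71 ± 0.18 (SE; 95% CI 0.32 to 1.10), with an adjusted p of 0.239 by limma, and in the same comparison the groups did not overlap on the higher side for 1.42% of all genes. Other settings gave an adjusted p between 0.172 and 0.591 and a difference between 0.40 and 0.87. The summed surface ectoderm markers of the same 4 libraries were 89.2, 89.8, 169 and 224 FPKM against 58.1 to 95.3 FPKM in the WT Fb, and the summed mesenchyme markers 136, 145, 120.03 and 110.4 FPKM against 151 to 179 FPKM. None of these markers passed, 4 of 6 and 3 of 5 having an unadjusted p under 0.05, and their part in the Junb values was not tested. Junb was 1.57, 3.69 and 8.44 FPKM in the DKO_Ex Fb and 1.68, 7.001 and 3.27 FPKM in the DKO_CD Fb, so both groups straddled the WT range. In the DKO_CD Mb it was 5.17, 4.08 and 5.44 FPKM, with a difference of 0.74 ± 0.33 (adjusted p = 0.743). Junb and Ier2 lie on chromosome 8, the chromosome of Cdh8 and Cdh11. Junb is 14.0 and 17.7 megabases and Ier2 14.4 and 18 megabases before the starts of these 2 genes. The part of linked sequence in these values was not tested.

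Ier3 pointed the other way in the Fb. It was 0.983, 0.846, 0.547 and 1.59 FPKM in the TKO_Ex Fb and 0.405, 2.17 and 0.987 FPKM in the DKO_Ex Fb, against 1.48 to 4.07 FPKM in WT. The TKO_Ex values overlapped WT by 1 library of each group. The differences were -0.87 ± 0.25 (adjusted p = 0.339) and -0.79 ± 0.32 (adjusted p = 0.639) on the log2(FPKM + 1) scale, at 1 to 3 fragments in the TKO_Ex libraries. These comparisons share the 6 WT Fb libraries, of which replicates 4 and 5 gave the 2 highest values, and so are not independent. In the Mb, where WT was lower, Ier3 was 1.62, 2.45, 0.577 and 0 FPKM in TKO_Ex and 0.688, 2.18 and 1.37 FPKM in DKO_Ex, around the WT median of 1.19 FPKM. The DKO_CD libraries had 0.817, 0.452 and 0 FPKM in the Mb, all below that median and at 2 fragments or fewer, and 1.31, 3.19 and 0.817 FPKM in the Fb (-0.46 ± 0.32, adjusted p = 0.723 by limma).

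For the more abundant genes the intervals bound what the groups could hide. The 95% interval lay within 1 log2 unit on both sides for 35 of the 45 tests, among them all 6 of Ier2, Jun, Btg2 and Dusp1. Ier2, for example, was 41.9, 45.3 and 52.6 FPKM in the DKO_CD Fb, in part below WT, with a difference of -0.23 (95% CI -0.46 to -0.01; adjusted p = 0.579). Dusp1 was 4.44, 5.24 and 5.11 FPKM in the DKO_CD Mb, inside the WT range of 4.12 to 8.61 FPKM, with a difference of -0.39 (95% CI -0.83 to 0.05; adjusted p = 0.807). Jun in the Mb was 14.9, 12.7, 11.7 and 22.4 FPKM in TKO_Ex, 15.6, 14.7 and 15.1 FPKM in DKO_Ex and 19.97, 11.7 and 13.6 FPKM in DKO_CD. These groups all reached above 11.8 FPKM, the highest of the WT Mb libraries but 1, and their differences of 0.27, 0.29 and 0.25 had adjusted p of 0.744, 0.904 and 0.888. The wide intervals belonged to Junb, Atf3 and Ier3. The median difference of the genes tested ran from -0.14 (DKO_CD Mb) to 0.15 (DKO_Ex Mb), beside medians over all genes of -0.01 to 0.04.

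**Figure D2:**
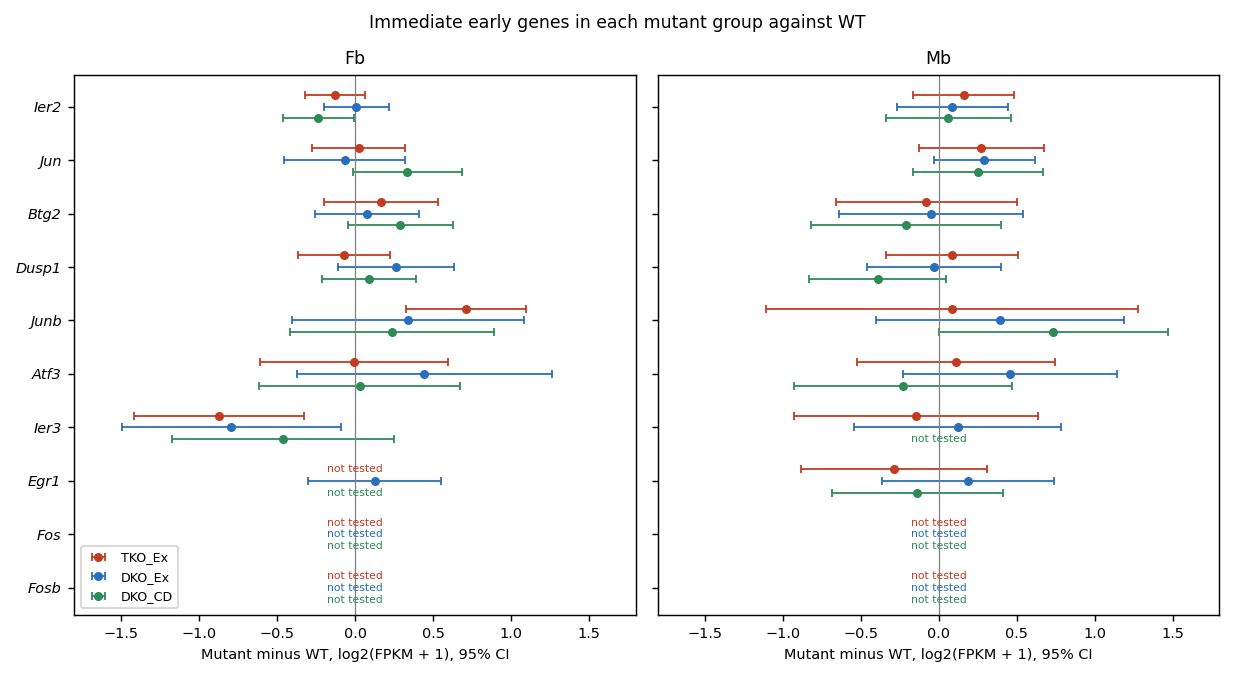
Difference from WT on the log2(FPKM + 1) scale (x axis) with its 95% confidence interval (limma) for each gene in the TKO_Ex, DKO_Ex and DKO_CD Fb (left) and Mb (right). No difference passed the adjusted threshold. Junb in the TKO_Ex Fb (0.71) and Ier3 in the TKO_Ex and DKO_Ex Fb (-0.87 and -0.79) are farthest from 0 in the Fb, and genes under a mean of 1 FPKM are marked as not tested.

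Whether a mutant group differed from WT more in one tissue than in the other was tested as an interaction. None of the 24 tests passed, while all genes gave 2 calls of 13423 (0.0149%) for TKO_Ex, 0 of 13349 (0.0%) for DKO_Ex and 1 of 13397 (0.00746%) for DKO_CD. The 95% interval lay within 1 log2 unit on both sides for only 15 of these 24. None of the 8 DKO_Ex tests had an unadjusted p under 0.05 by limma, which 518 or 3.88% of all genes reached there. The largest value was that of Ier3 in DKO_Ex, 0.92 ± 0.44 (95% CI -0.00 to 1.84; adjusted p = 0.9996 by limma).

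The clearest pattern among these genes was the difference between the tissues. In WT, Btg2 was 15.8 ± 4.72 FPKM in the Mb and 6.88 ± 1.26 FPKM in the Fb (SD, n = 6 each). Replicate 1, with 8.23 FPKM, was the only Mb library inside the Fb range, and the other 5 lay from 11.7 to 20.1 FPKM. On the log2(FPKM + 1) scale Btg2 was higher in the Mb by 1.05 ± 0.20 (SE; adjusted p = 0.00387), one of 622 genes that were higher there. Ier2 was lower in the Mb, 40.3 ± 7.30 against 54.9 ± 4.73 FPKM, by 0.45 on that scale (-0.45 ± 0.12; adjusted p = 0.0293). Its groups met only where the highest Mb library, 48.4 FPKM, passed the lowest Fb library, 48.0 FPKM. These 2 calls stood among 8 genes tested, beside 1102 of 13344 over all genes (8.26%). Btg2 passed when any of the 12 WT libraries was left out, with 0.97 and an adjusted p of 0.0105 without Mb replicate 5, whereas Ier2 failed in 7 of these 12 fits (adjusted p up to 0.0669, without Fb replicate 4), namely without Fb replicate 1, 3, 4 or 6 or without Mb replicate 3, 4 or 6, at -0.43 to -0.46.

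The other 6 genes tested did not pass. Ier3 had the next lowest p, with 1.21 ± 0.593 FPKM in the Mb and 2.71 ± 1.10 FPKM in the Fb and a difference of -0.74 ± 0.23 (adjusted p = 0.0710), and it passed only without Fb replicate 1 (0.0460) or without Mb replicate 6 (0.0389). Egr1 (0.34 ± 0.18, adjusted p = 0.314), Atf3 (0.47 ± 0.25, adjusted p = 0.306) and Jun (0.21 ± 0.13, adjusted p = 0.421) had higher means in the Mb. The intervals of all 3 included 0. For each of these 3 genes Mb replicate 2 was the highest WT library.

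Btg2 was then followed in the mutants, which the WT comparison did not use. This was added after the WT result had been seen. In the DKO_Ex Mb it was 15.2, 11.4 and 17.6 FPKM and in the Fb 7.33, 7.54 and 6.799 FPKM, with no overlap, a difference of 0.92 ± 0.18 and an adjusted p of 0.0498 (limma called 344 of 13314 genes, 2.58%). In the TKO_Ex Mb it was 9.996, 11.8, 16.6 and 20.9 FPKM and in the Fb 6.44, 6.29, 8.47 and 10.4 FPKM, overlapping at the edges, with 0.80 ± 0.24 and an adjusted p of 0.159 (389 of 13477 genes called, 2.89%). In the DKO_CD Mb it was 17.6, 11.5 and 10.6 FPKM and in the Fb 9.07, 7.82 and 8.80 FPKM, again apart, with 0.54 ± 0.21 and an adjusted p of 0.440 (68 of 13415 genes called, 0.507%). All 4 groups thus had the higher mean in the Mb, and within each group the lowest Mb value was above the Fb median. The TKO_Ex difference passed with all groups in one fit (adjusted p = 0.0378 by limma) and with the replicate number as a block (0.0434). The DKO_Ex call sits at the threshold. It was lost without Fb replicate 1, 2 or 3 or Mb replicate 1 or 3 (adjusted p of 0.126 to 0.178), and with a pseudocount of 5, no filter, at least 1 FPKM in every library, no trend, median-of-ratios scaling or quantile normalization (0.0509 to 0.0919). With the replicate number as a block it was lost too (0.106). By record it belongs to DKO_CD instead, at the same values, since the libraries of the groups then change places. The counts over all genes in these 3 comparisons were themselves unsteady, at 163 to 233 for DKO_Ex, 253 to 337 for TKO_Ex and 26 to 77 for DKO_CD when 1 library was left out. The interaction of Btg2 was -0.24, -0.13 and -0.50 for TKO_Ex, DKO_Ex and DKO_CD, with adjusted p of 0.936, 0.9996 and 0.990. For Ier2 the Mb minus Fb difference was -0.16, -0.37 and -0.16 in TKO_Ex, DKO_Ex and DKO_CD, and none of these passed. In DKO_Ex the tissues were also apart without passing the test for Jun and Egr1, with the Mb above, and for Ier2, with the Mb below, where 12.6% and 7.86% of all genes were so. In DKO_CD they were apart for Ier3 and Dusp1, with the Mb below, where 8.21% of all genes were, and 7.34% were above. For Ier3 the nearest libraries of the tissues were both at 0.817 FPKM, about 2 fragments each, and 1 Mb library was listed at 0, so that these groups were barely apart. Egr1 in the DKO_Ex Mb, for example, was 1.38, 2.45 and 1.69 FPKM against 1.08 to 1.18 FPKM in the Fb.

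**Figure D3:**
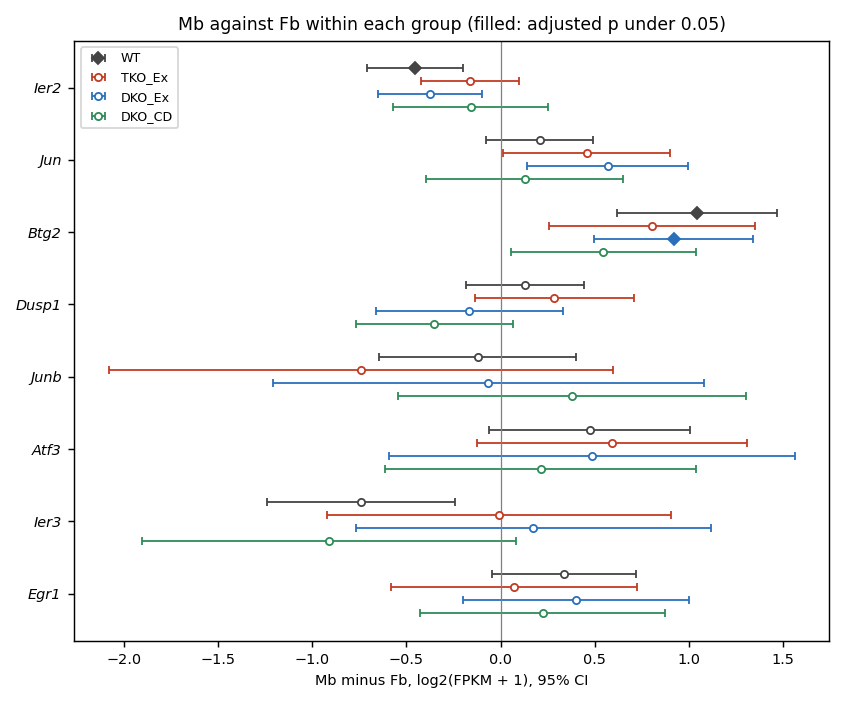
Mb minus Fb on the log2(FPKM + 1) scale (x axis) with its 95% confidence interval (limma) for 8 genes in WT, TKO_Ex, DKO_Ex and DKO_CD. Filled diamonds mark an adjusted p under 0.05 and open circles the rest. Btg2 is on the right of 0 in all 4 groups (0.54 to 1.05) and filled in WT and DKO_Ex, and Ier2 is on the left of 0 and filled in WT.

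The 2 tissues also differed in cell type markers and in neurogenesis genes, and fewer cells of a type and less RNA per cell cannot be told apart in such bulk samples. All 5 surface ectoderm markers tested of 6 (Cdh1, Epcam, Grhl2, Krt8 and Krt18) were lower in the WT Mb, and the sum of the 6 was 28.6 ± 6.34 FPKM there against 75.8 ± 13.9 FPKM in the Fb (23.9 to 37.1 and 58.1 to 95.3 FPKM), with Krt8 the most abundant by its mean in the Mb (11.5 FPKM) and Krt18 in the Fb (25.4 FPKM). Of the 5 mesenchyme markers, 4 (Prrx1, Pdgfra, Twist1 and Foxc1) were lower, with sums of 115 ± 28.1 against 164 ± 11.8 FPKM and Twist1 the most abundant in the Fb (78.0 FPKM). The fifth, Col3a1, was the most abundant in the Mb, at 62.0 ± 19.6 against 46.4 ± 5.87 FPKM (0.36 ± 0.17, adjusted p = 0.242 by limma), and it was higher in the Mb of TKO_Ex (1.003 ± 0.14, adjusted p = 0.00473) and of DKO_Ex (1.08 ± 0.14, adjusted p = 0.0113). Of the 5 neuroepithelium markers, Nes and Hes5 were higher, with sums of 386 ± 42.2 against 262 ± 23.3 FPKM and Sox2 the most abundant in both. None of the 6 endothelium markers and none of the 5 primitive red cell markers passed in WT (Hbb-y, an embryonic globin, was higher in the Mb within TKO_Ex, by 0.95 ± 0.21, adjusted p = 0.0494 by limma), though the red cell sum ran from 2396 to 21517 FPKM among the WT Fb libraries, and the 4 macrophage markers lay near 0, with sums of at most 1.99 FPKM in any library. A set of 8 neurogenesis genes chosen after their values were seen (Neurog1, Neurog2, Dll1, Elavl3, Elavl4, Dcx, Stmn2 and Hes6) summed to 99.2 to 182 FPKM in the WT Mb (134 ± 29.6) and 39.2 to 52.7 FPKM in the WT Fb (44.9 ± 5.94), with Hes6 the most abundant in both. Their part in the Btg2 and Ier2 values was not tested.

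Likeness in the variation between libraries of 1 group was measured by Pearson's r of the deviations from the group mean over all 32 libraries, and is a description only, since all genes of a library share its depth and composition. Among the 45 pairs of the 10 genes r ran from -0.64 (Ier3 and Dusp1) to 0.48 (Jun and Btg2), with a median of 0.04, 24 of 45 above 0 and none over 0.5. Over all pairs of 13441 genes the median was 0.02, with 54.4% above 0 and 1.21% over 0.5. The pairs with Fos, Fosb or Ier3 rest on few fragments. The 5 genes most like Fos among 13442 were Sparc (0.76), Ascc1 (0.75), Mettl25 (0.72), Pheta1 (0.71) and Gm13092 (0.70). With Fos at 0 in 19 libraries these values rest on few fragments, and none of the 5 remained among the first 5 without the 2 libraries farthest from the Fos median, WT Mb replicate 2 and TKO_Ex Mb replicate 2. The member nearest to Fos was Ier2 (0.38, rank 704).

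For Btg2, added after its values were seen, the most alike genes included Onecut1 (0.80), Dcx (0.79), Clip3 (0.75) and Lyrm1 (0.73). Onecut1 encodes a homeodomain factor of early neurons and Dcx a microtubule protein of newborn neurons. These 4 remained among the first 100 without the 2 libraries farthest from the Btg2 median, WT Mb replicate 1 and TKO_Ex Mb replicate 1, and Clip3 then ranked first at 0.79. Of the 5 most alike genes, 2 then stayed among the first 5. In WT libraries alone 0 of the 5 did so, and 4 were among the first 100. In Fb libraries alone 0 did so, and 1 was among the first 100, while in Mb libraries alone these counts were 2 and 5. The likeness was closer in the Mb libraries, where r was 0.87 for Onecut1 and 0.88 for Dcx over 16 libraries, than in the Fb, where it was 0.48 and 0.43. Onecut1 and Dcx are themselves low, with means of 1.07 and 1.16 FPKM. The group means of Dcx were 0.200 to 0.472 FPKM in the Fb and 1.72 to 2.34 FPKM in the Mb, so in the Fb Dcx had little room to vary. The nearest of the 10 genes was Jun, at rank 222.

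**Figure D4:**
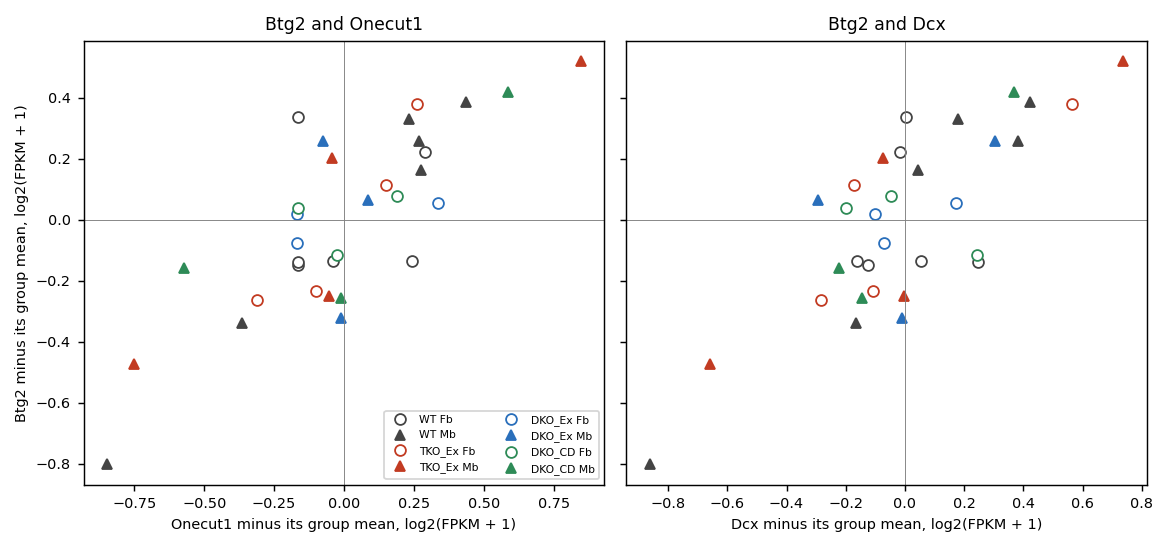
Deviation of Btg2 from its group mean (y axis) against that of Onecut1 (left) and Dcx (right), in log2(FPKM + 1), for 32 libraries. Open circles are Fb and filled triangles Mb libraries, coloured by genotype. The Mb libraries spread along a line (r = 0.87 and 0.88), with WT Mb replicate 1 lowest for both genes of each pair, and the Fb libraries much less (r = 0.48 and 0.43).

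Other genes of the same response and of the kinases above it were described from lists chosen with earlier results of these data known. Of 41 further immediate early and feedback genes, 31 to 34 were tested in each comparison with WT and 0 passed in any of the 6 (11 of 194 tests at an unadjusted p under 0.05). Their median difference ran from 0.02 to 0.12. In the WT Mb against the WT Fb, 3 of 33 were higher and 5 lower (background 4.66% and 3.60% of all genes). The 3 higher were Gadd45g, a growth arrest gene that in neural progenitors is known from the onset of differentiation (26.1 ± 7.34 against 4.53 ± 1.16 FPKM; 2.28 ± 0.18, adjusted p = 2.35e-06), Rhob, a small GTPase (53.1 ± 7.15 against 37.1 ± 3.52 FPKM; 0.50 ± 0.10, adjusted p = 0.00624), and the zinc finger gene Klf6 (0.37 ± 0.08, adjusted p = 0.0105). The 5 lower were Dusp5, an ERK phosphatase (5.49 ± 1.59 against 10.99 ± 2.24 FPKM; -0.90 ± 0.17), the secreted Ccn1 (-0.62 ± 0.15), Myc (-0.61 ± 0.17), the mRNA decay factor Zfp36l2 (-0.43 ± 0.10) and the EGF receptor inhibitor Errfi1 (-0.37 ± 0.10). Zfp36l1, at 47.4 ± 5.98 FPKM in the Mb and 38.4 ± 6.73 FPKM in the Fb, and Dusp6, at 22.6 ± 6.46 and 32.0 ± 5.88 FPKM, did not pass. Thus members of the wider list lay on both sides, as Btg2 and Ier2 did. Fewer genes of the list passed with the replicate block, as given below under the processing.

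None of the upstream genes passed against WT or between the WT tissues (3 of 102 and 4 of 17 tests at an unadjusted p under 0.05, which 5.46% to 8.66% of all genes reached against WT and 20.9% between the WT tissues). All 17 kinases and factors were tested, and their medians ran from 0.00 to 0.07 against WT and stood at 0.00 in the WT Mb against the WT Fb. Among the most abundant were the kinases Map2k2 (97.1 ± 13.9 FPKM in the WT Mb and 96.3 ± 9.13 FPKM in the WT Fb), Mapk3 (44.7 ± 2.79 and 44.1 ± 3.41 FPKM) and Mapk14 (33.6 ± 3.14 and 36.2 ± 3.67 FPKM).

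Other stress programmes were set beside the immediate early genes. In the 6 comparisons with WT, 0 of 9 integrated stress response genes tested (10 listed), 0 of 9 p53 targets and 0 of 12 or 13 heat shock genes passed, with 6 of 54, 3 of 54 and 10 of 73 tests at an unadjusted p under 0.05, where 5.46% to 8.66% of all genes reached it. Among the 4 most abundant of each list, Atf4 was at 119 ± 10.8 FPKM in the WT Mb and 127 ± 7.38 FPKM in the WT Fb, Psat1 at 91.1 ± 4.99 and 100.2 ± 7.98 FPKM, Phgdh at 86.8 ± 11.1 and 88.4 ± 6.89 FPKM and Asns at 28.2 ± 6.73 and 37.2 ± 6.78 FPKM. The p53 targets Bax, Mdm2, Ccng1 and Plk2 did not pass between the tissues either, and only Cdkn1a, the cell cycle inhibitor p21, was higher in the WT Mb (5.28 ± 1.91 against 1.62 ± 1.10 FPKM; 1.31 ± 0.30, adjusted p = 0.0158). Of the heat shock genes, Hsp90ab1, Hsp90aa1 and Hspd1 did not pass and Hspe1 was lower in the WT Mb (723 ± 132 against 959 ± 111 FPKM; -0.42 ± 0.11, adjusted p = 0.0351). The Hspe1 call was lost without a filter, without a trend or with the replicate block. The inducible Hspa1b, chosen after its values were seen, was at 1.35 ± 0.439 FPKM in the WT Mb and 2.23 ± 0.868 FPKM in the WT Fb. Hspa8, chosen after its values were seen and described under other observations, did not pass against WT in the main fits. It passed with the replicate block, which sets mutant libraries against WT libraries of the same number. WT libraries whose number the mutant group lacks then add nothing to the difference. These come from WT replicates 4 to 6, which had more Hspa8 than replicates 1 to 3, so this pass is not read as a group difference.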

How the data were processed

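RNA from Fb and Mb tissue was measured in 32 libraries. Per the labels and methods, the authors made directional libraries (101 cycles), used TopHat2 for alignment to GRCm38 and Cufflinks for quantification, and the deposited FPKM are already scaled to library size and gene length; versions and annotation are not given in the sources used here. Their HTSeq counts and DESeq2 tests were not used. The FPKM of 65 repeated identifiers were summed, and 48218 of 48576 identifiers were found in GENCODE M21. Depth came from the steps of 771 long single-transcript genes (87.3% to 94.0% of low values within 0.1 of a whole fragment); numbers of fragments are estimates from it. Groups follow the column headings.

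Differences were fitted with limma 3.58.1 in R 4.3.3 (lmFit, eBayes with trend) on log2(FPKM + 1), a scale that understates changes of low genes, leaving out genes that averaged under 1 FPKM in the libraries fitted, with Benjamini-Hochberg adjustment over all genes tested and a threshold of 0.05. The fits were tested on simulated data. Likeness was Pearson's r of log2(FPKM + 1) after subtracting group means.

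The 10 genes and all lists were chosen with earlier results of these data known. Named from each list were the 4 most abundant genes and those past the threshold, apart from some genes that are not reported here. Alternatives were pseudocounts of 0.1 and 5, other filters, scalings and fits, the replicate block, the grouping by record and leaving out each library. Other software was Python 3.11.15 with pandas 2.3.3.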

Additional observations from a re-analysis of the deposited data

Results flagged for a closer look

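Groups of 4 or 6 libraries were searched for single libraries far from the rest (Dixon's test at 95%), for the 10 genes, Cdh6, Cdh8, Cdh11 and Hspa8. Of 56 groups, 7 held one, where chance flags about 1 in 20. That rate does not hold for Fos in the TKO_Ex Mb and Fosb in the TKO_Ex Fb, where the other 3 libraries were at 0 and any value above 0 would stand apart. Nor does it hold for Fos in the WT Mb, where 4 of 6 libraries were listed at 0. Fos and Jun were flagged in the same WT Mb library, so those flags may not be independent. Fos was high in WT Mb replicate 2, at 1.93 FPKM where no other WT Mb library passed 0.436 FPKM, and in TKO_Ex Mb replicate 2, at 1.19 FPKM with the others at 0. Jun was high in the same WT library, 17.2 FPKM where the rest ended at 11.8 FPKM. Fosb was 0.0866 FPKM in TKO_Ex Fb replicate 1, about 2 fragments, with the others at 0. Atf3 was low in WT Fb replicate 5, at 0.787 FPKM below a second lowest of 1.69 FPKM. Cdh6 stood at 3.10 FPKM in replicate 3 of the TKO_Ex Mb with 0.388 FPKM the highest of the rest, and Hspa8 at 284 FPKM in replicate 3 of the TKO_Ex Fb with 523 FPKM the lowest of the rest.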

How the results depend on the processing

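Of 2045 values of the 10 genes under an alternative, 1901 kept their direction and their side of the threshold, 119 values below the threshold moved across 0, 20 calls were lost, 5 were gained and 0 calls reversed. In the comparisons with WT and the interactions, 0 of the 10 genes passed under any alternative. In WT, 1 to 2 genes passed when a library was left out (Mb against Fb). Within TKO_Ex, Btg2 passed (1 gene) with all groups in one fit and with the replicate block (adjusted p = 0.0434 by limma; 0.106 in DKO_Ex). Within DKO_Ex, 0 genes passed with a pseudocount of 5, no filter, at least 1 FPKM in every library, the replicate block, no trend, median-of-ratios scaling, quantile normalization or grouping by record, and 0 to 1 when a library was left out; within DKO_CD, 1 passed by record. The cause was not tested. Of the lists in WT, the further immediate early genes passed in 4 instead of 8 cases with the replicate block; heat shock genes in 0 instead of 1 without a filter, with the block or without a trend; the integrated stress response in 1 instead of 0 with all groups in one fit or with the block; p53 targets in 0 instead of 1 with at least 1 FPKM in every library, where fewer genes were tested. In the mutants against WT, 1 heat shock gene (Hspa8) passed with the block, which leaves out WT libraries whose number the mutant group lacks. Of the 5 genes most like Fos, 1 stayed among the 5 in WT libraries alone and 0 without the 2 farthest libraries. The replicate block changed no other call. Same-numbered Fb and Mb libraries of a group correlated weakly, at 0.01 to 0.14 (4 of 16 over 0.1). Yet in 14 of 16 the own number gave the highest correlation. For mutant and WT libraries of one tissue the own number was highest in 0 of 20, and 0 of 20 passed 0.1. A number may thus tie an Fb library to an Mb library, which the labels do not state. The main fits took all libraries as independent, and whether Fb and Mb are matched by number was left undecided. The Btg2 calls within TKO_Ex and DKO_Ex depend on this choice.

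Counts over all genes moved by more than 1.5 times. With the block they went from 12 to 0 in the TKO_Ex Mb, 12 to 1 in the DKO_Ex Mb, 5 to 1 in the DKO_CD Mb, 8 to 0 in the TKO_Ex Fb and 10 to 2 in the DKO_Ex Fb, and without a filter from 5 to 15 in the DKO_CD Fb. By record the counts of DKO_Ex and DKO_CD against WT change places in each tissue. Leaving out 1 library against WT gave 4 to 52 in the TKO_Ex Mb (moved over 1.5 times without WT 1, 2, 3, 5 or 6 or TKO_Ex 1 or 2; 52 without WT 1), 3 to 14 in the DKO_Ex Mb (WT 3, 4 or 6 or any DKO_Ex; 3 without DKO_Ex 3), 3 to 10 in the DKO_CD Mb (WT 1 or 2 or DKO_CD 2; 10 without WT 1), 0 to 8 in the TKO_Ex Fb (any WT or TKO_Ex 2; 0 without TKO_Ex 2, with 1141 at an unadjusted p under 0.05), 6 to 14 in the DKO_Ex Fb (6 without WT 5) and 2 to 10 in the DKO_CD Fb (2 without WT 1, 2 or 3 or DKO_CD 1; 10 without WT 4). The interaction of TKO_Ex had 1 to 5 calls (5 without WT Mb 4) and that of DKO_Ex 0 to 1. Other settings gave 0 to 4 for TKO_Ex (0 with all groups in one fit or with the block, 4 without a trend), 0 to 1 for DKO_Ex and 0 to 5 for DKO_CD (5 without a filter, 0 with all groups in one fit, at least 1 FPKM in every library or by record). Within the mutants, Mb against Fb, they went with all groups in one fit from 389 to 663 in TKO_Ex, 344 to 542 in DKO_Ex and 68 to 362 in DKO_CD, with at least 1 FPKM in every library to 257 in TKO_Ex and 35 in DKO_CD, and with the block to 40 in DKO_CD; by record DKO_Ex and DKO_CD change places. The libraries whose absence moved them as far were TKO_Ex Fb replicate 3 (255) and Mb replicate 2 (253), all DKO_Ex libraries but Fb replicate 3 (163 to 207), and DKO_CD Fb replicates 1 and 3 (26 each) and Mb replicate 3 (35). Depth limits Fos, Fosb, Ier3, Atf3 and Egr1, at means of 1.21, 0.802, 3.36, 13.2 and 14.1 fragments.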

Other observations

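Hspa8, a constitutive heat shock chaperone chosen after its values were seen, was 121 to 132 FPKM in WT Fb replicates 1 to 3 and 252 to 281 FPKM in replicates 4 to 6, and 131 to 145 and 245 to 309 FPKM in the same Mb replicates. In the mutants it was 341 to 564 FPKM in all libraries but those of TKO_Ex replicate 3 (284 FPKM in the Fb and 312 FPKM in the Mb). Every mutant library thus lay above all WT libraries of its tissue, though the nearest were close. They stood at 284 against 281 FPKM in the Fb and at 312 against 309 FPKM in the Mb. The share of all genes separated in this way was not counted. The differences from WT were 1.17 to 1.41 on the log2(FPKM + 1) scale, with adjusted p of 0.175 to 0.394 by limma. Hspa8 passed against WT only as stated above, with the replicate block. That fit leaves out WT libraries from the higher replicates 4 to 6, whose numbers the mutant groups lack in whole or in part. Within WT replicates 1 to 3 Btg2 was higher in the Mb by 0.92 and within replicates 4 to 6 by 1.17, and Ier2 differed by -0.26 and -0.65 (no test). The part of a shared preparation in these values was not tested.

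Over the 16 pairs of same-numbered Fb and Mb libraries of a group, the deviations of Ier2 correlated at 0.55 and those of Jun at 0.40, and those of Fos at -0.11, given as a description, since nothing in the labels ties a number to an embryo.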
